A study of Mus musculus with 8 samples.

Results

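Osteopontin, its receptor CD44 and the galectins were followed as 7 genes, chosen by symbol from the 38026 genes of the deposited expression table. They were Spp1 (osteopontin), Cd44, the galectin genes Lgals1, Lgals3, Lgals8 and Lgals9, and Lgals3bp, which encodes a secreted glycoprotein that binds galectins. All 7 were found and all 7 passed the filter on low values, as did 15262 genes in all. Bulk RNA-seq had been run on 8 libraries of mouse cells, each pulled out with magnetic beads against CD11b, an integrin subunit that myeloid cells carry. For 5 libraries the source was medulloblastoma, a cerebellar tumor, whose captured microglia and macrophages are called tumor-associated (TAMs). The C57BL/6 mice they came from were aged 68, 90, 61, 66 and 62 days after birth (replicates 1 to 5). The other 3 libraries held cortex microglia of C57BL/6 mice aged 60 days. The genotype or procedure that gave rise to the tumors is not given in the sources used here, nor whether a library came from 1 animal or from pooled animals. Tumor and normal cells also came from different brain regions, so region and tumor cannot be told apart, and p-values measure the spread between these libraries.

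Osteopontin is a secreted, phosphorylated glycoprotein of bone matrix and of activated macrophages. It binds integrins through a short RGD sequence and is also a ligand of CD44, a surface glycoprotein whose main ligand is the matrix sugar hyaluronan and whose tail is tied to actin by proteins such as moesin. Galectins are lectins that bind galactose-containing sugar chains and are made in the cytosol without a signal peptide. Galectin-1 is a small dimer, galectin-3 has a single sugar-binding domain on a long flexible tail, and galectins 8 and 9 carry a pair of such domains. In the cytosol galectins 3, 8 and 9 also gather on damaged lysosomes, where the sugar chains of the inner face become exposed. In brain tissue Spp1 and Lgals3 are best known from microglia and macrophages around damage and demyelination.

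Values are transcript abundances normalised to the library (TPM), which are scaled by gene length and can be compared between genes. TPM keeps no read depth, so no counting interval is given. Genes were tested with limma on log2(TPM + 1), and a gene is said to rise or fall where its Benjamini-Hochberg adjusted p over all 15262 genes was under 0.05. All tested genes together had a median log2 fold change of -0.65, so a gene with a fold change near that value moved with the bulk of the table. A rescaled TPM, set so that the typical gene is level across libraries (each divided by a size factor from median ratios to geometric means), brought that median to 0.07 and is given beside the results. On TPM 8.22% of all tested genes were higher and 56.4% lower in TAMs, and on rescaled TPM 28.0% and 20.8%. Libraries held 12683 to 14242 genes at 1 TPM or more in TAMs and 14375 to 16619 in microglia. Of 10 endothelial and 10 mural and fibroblast markers all 20 were lower in TAMs, with summed levels of 16.2 to 109 and 8.49 to 35.1 TPM there against 713 to 2321 and 426 to 1079.8 TPM in microglia. The 10 microglia and macrophage markers summed to 21228 to 25938 TPM in microglia and 10346 to 22998 TPM in TAMs. The 10 monocyte-derived macrophage markers, mostly Lyz2, summed to 992 to 1324 and 5598 to 11888 TPM, with 4 higher and 1 lower in TAMs. Of the tested astrocyte markers 9 of 10 and of the oligodendrocyte markers 8 of 8 were lower, with sums of 14.5 to 69.7 and 45.7 to 57.3 TPM in TAMs against 108 to 707 and 166 to 859 TPM in microglia. Of the neuron and granule cell markers 5 of 8 were higher and 1 lower (8.45 to 73.4 against 8.97 to 40.7 TPM), and of the B and plasma cell markers 2 of 3 were higher (54.1 to 643 against 8.93 to 19.2 TPM). Of the T and NK cell markers 2 of 4 were lower (3.24 to 6.43 against 5.13 to 10.8 TPM). The part of these cells in the results was not tested.

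Of the 7 genes 5 rose in TAMs, 1 fell and 1 did not pass the test, beside 8.22% of all genes higher and 56.4% lower. Spp1, Lgals3, Lgals3bp, Cd44 and Lgals1 rose, with every TAM library above every microglia library, which held for 7.97% of all tested genes. On rescaled TPM the same 5 and Lgals9 rose and none fell, beside 28.0% of all genes higher and 20.8% lower. In the authors' deposited table the same 6 genes were higher by DESeq2 (17.6% of its genes were). The 7 genes were chosen with earlier results of these data known, so their count is a description. In bulk samples a higher level per cell and a larger share of cells that carry the RNA cannot be told apart. The genes together made up 0.267% ± 0.0439 of all TPM in TAMs (SD, n = 5) and 0.0521% ± 0.000836 in microglia (SD, n = 3).

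**Figure D1:**
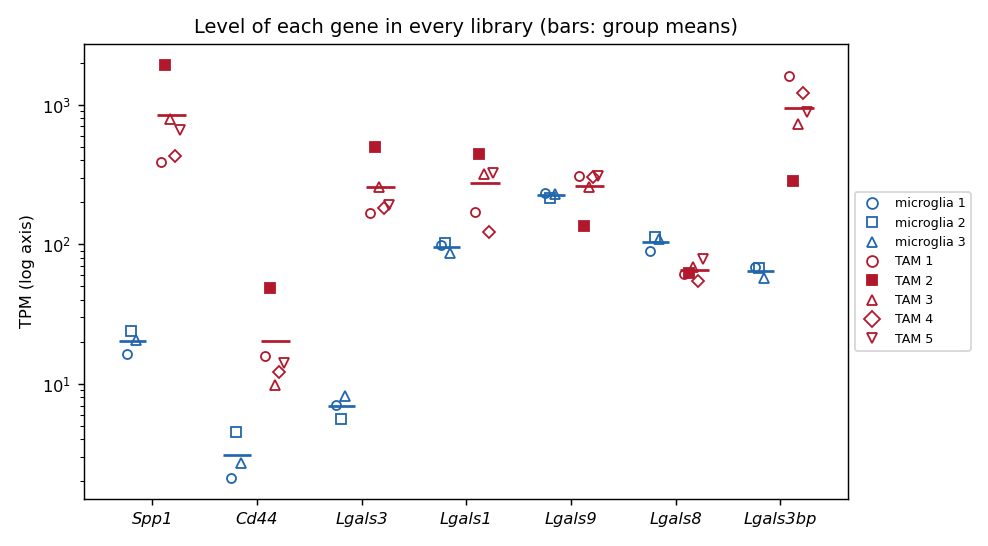
TPM of each gene on a log axis in the 3 microglia libraries (blue) and the 5 TAM libraries (red), with a bar at each group mean and TAM replicate 2 as filled squares. Spp1 and Lgals3 sit furthest apart between the groups, Lgals9 overlaps, and Lgals8 is lower in every TAM library on TPM.

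Spp1 (chromosome 5, 104435118 to 104441050 on mm10) stood at 388, 1941, 794, 427 and 657 TPM in TAM replicates 1 to 5. In the microglia libraries it stood at 16.3, 23.9 and 20.8 TPM. The groups were far apart, and TAM replicate 2 stood far above the other 4. The means were 842 ± 637 TPM (SD, n = 5) and 20.3 ± 3.84 TPM (SD, n = 3), 41.4-fold apart. On the log2 scale they differed by 5.06 (SE 0.48, limma, adjusted p = 0.000126), and 5.85 on rescaled TPM. In the authors' deposited table it was 5.99. Among all tested genes of a library Spp1 ranked between the 98.3 and 99.7 percentiles in TAMs and between 57.0 and 58.7 in microglia. Cortex microglia thus listed it at a middling level, and TAMs among their most abundant RNAs.

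Cd44 (chromosome 2, 102811141 to 102901665) was the least abundant of the 7 genes in both groups. It stood at 15.8, 49.0, 9.87, 12.2 and 14.2 TPM in TAM replicates 1 to 5 and at 2.11, 4.53 and 2.70 TPM in microglia. Every TAM library was above every microglia library, with TAM replicate 2 again at the top. Its means were 20.2 ± 16.2 TPM (SD, n = 5) and 3.11 ± 1.26 TPM (SD, n = 3), 6.49-fold apart. The difference was 2.16 on the log2 scale (SE 0.47, limma, adjusted p = 0.00442), and 2.83 on rescaled TPM. The receptor was thus listed far below its ligand: Spp1 was 24.5 to 80.5 times Cd44 in the TAM libraries and 5.28 to 7.72 times in the microglia libraries.

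Lgals3 (chromosome 14, 47367751 to 47386160) stood at 167, 497, 257, 182 and 191 TPM in TAM replicates 1 to 5. In microglia it stood at 7.10, 5.61 and 8.23 TPM, the lowest of the 4 galectin members there. Means of 259 ± 138 TPM (SD, n = 5) and 6.98 ± 1.31 TPM (SD, n = 3) lay 37.1-fold apart. In log2 units this was a rise of 4.91 (SE 0.34, limma, adjusted p = 3.76e-05), and 5.65 on rescaled TPM. Spp1 and Lgals3 kept a narrow ratio of TPM, from 2.32 to 3.91 in TAM libraries and from 2.29 to 4.27 in microglia libraries.

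Lgals1 (chromosome 15, 78926725 to 78930465) was already abundant in cortex microglia, at 98.9, 102 and 86.2 TPM. In TAM replicates 1 to 5 it stood at 170.1, 441, 321, 123 and 323 TPM. The groups did not overlap, but TAM replicate 4 lay close to the microglia libraries. Its rise of 1.38 on the log2 scale (SE 0.39, limma, adjusted p = 0.0136) came from means of 276 ± 128 TPM (SD, n = 5) and 95.6 ± 8.23 TPM (SD, n = 3) and was 2.19 on rescaled TPM. The call was lost without microglia replicate 3 (adjusted p = 0.0515) and with the age of the mice as a covariate (adjusted p = 0.0522). Over the 27 alternatives it was called in 25, with a fold change of 1.12 to 2.50.

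Lgals9 (chromosome 11, 78962974 to 78984946) was the most abundant of the 7 genes in microglia, at 234, 214 and 229 TPM. TAM replicates 1 to 5 stood at 307, 135, 257, 306 and 312 TPM, so that 4 of 5 were above every microglia library and replicate 2 was below them all. With all 8 libraries it did not pass the test (log2 fold change 0.16, limma, adjusted p = 0.608), with a 95% interval of -0.45 to 0.77. It rose without TAM replicate 2 (0.38, adjusted p = 0.0106). After rescaling it rose as well (0.98, adjusted p = 0.0266). The rescaled call was lost without TAM replicate 3 or 4 or microglia replicate 2 or 3, with adjusted p up to 0.108. In the authors' deposited table it was higher by 1.02 (DESeq2, adjusted p = 0.00423).

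Lgals8 (chromosome 13, 12439415 to 12464944) varied least among the TAM libraries, at 61.5, 62.4, 68.9, 54.8 and 78.6 TPM in TAM replicates 1 to 5 and 90.2, 113 and 109.8 TPM in microglia. Every TAM library was below every microglia library on TPM, as for 49.7% of all tested genes, but the groups overlapped on rescaled TPM. Its log2 fold change of -0.67 (SE 0.13, limma, adjusted p = 0.00296) was close to the median of -0.65 over all genes. On rescaled TPM it stood at 0.14 (adjusted p = 0.281, 95% interval -0.095 to 0.38), and the authors' deposited table gave 0.15 (DESeq2, adjusted p = 0.397). Its fall on TPM thus matched the shift of the median gene. The gene overlaps Heatr1 on the opposite strand, and the strandedness of the libraries is not given in the sources used here. Spp1 also overlaps another gene, Gm42793, on the same strand, and Cd44 overlaps the small nuclear RNA gene Gm23731 on the opposite strand.

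Lgals3bp (chromosome 11, 118392751 to 118402092), also known as a gene induced by interferon, was the most abundant of the 7 in TAMs by the mean. It stood at 1608, 286, 732, 1215 and 888 TPM in TAM replicates 1 to 5 and at 68.3, 67.4 and 57.8 TPM in microglia. The groups were apart, with TAM replicate 2 the lowest tumor library and replicate 1 the highest. Means were 946 ± 499 TPM (SD, n = 5) and 64.5 ± 5.85 TPM (SD, n = 3), 14.7-fold apart. TAMs exceeded microglia by 3.65 on the log2 scale (SE 0.48, limma, adjusted p = 0.000480), and 4.46 on rescaled TPM.

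**Figure D2:**
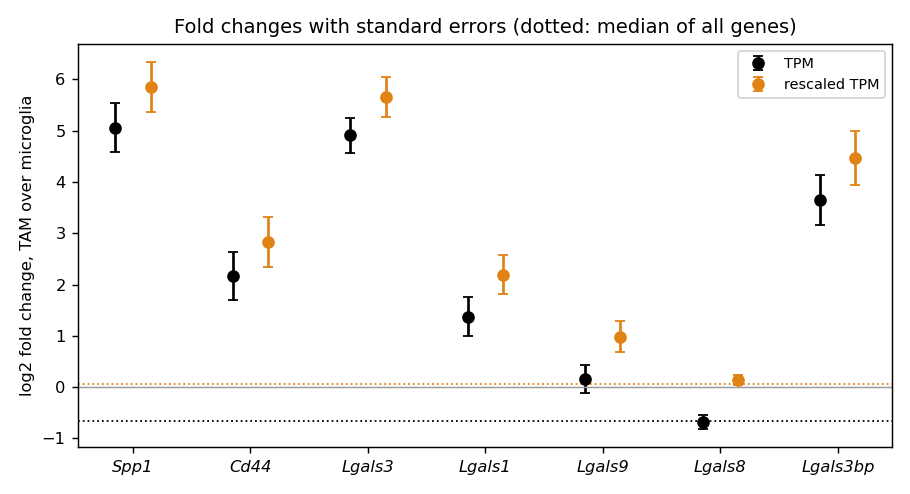
Log2 fold change of TAMs over microglia with its standard error for each gene, on TPM (black) and on rescaled TPM (orange), with the median of all tested genes as a dotted line for each scale. Lgals8 lies on the median on TPM at -0.67 and near 0 on rescaled TPM, while Spp1, Lgals3 and Lgals3bp lie above 3 on both.

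The order of the levels changed between the groups. In microglia it ran Lgals9, Lgals8, Lgals1, Lgals3bp, Spp1, Lgals3 and Cd44. Of these neighbours only Lgals8 and Lgals1 had overlapping ranges over the 3 libraries, and Lgals8 was the higher in 2 of 3. In TAMs the order of means ran Lgals3bp, Spp1, Lgals1, Lgals9, Lgals3, Lgals8 and Cd44. The first 5 overlapped their neighbours, with Lgals3bp above Spp1 in 3 of 5 libraries, while Lgals8 and Cd44 stood below them without overlap.

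The galectin genes together, summed over 9 genes, held 457 ± 10.7 TPM in microglia (SD, n = 3) and 869 ± 189 TPM in TAMs (SD, n = 5), with no test made. Lgals9 held 45.8% to 52.5% of galectin TPM in the microglia libraries and 11.9% to 45.6% in the TAM libraries. Lgals8 held 20.3% to 24.3% in microglia and 5.46% to 8.66% in TAMs. Lgals3 went the other way, from 1.20% to 1.80% in microglia to 20.9% to 43.5% in TAMs, with no overlap. Lgals1 held 18.8% to 22.2% and 18.4% to 38.6%, which overlapped. Galectins with a pair of sugar-binding domains thus made up most of the galectin RNA of cortex microglia, and TAMs carried a mixture of Lgals1, Lgals9 and Lgals3 RNA. Replicate 2 weighed on the balance of that mixture: Lgals3 was 3.67 times Lgals9 there and 0.544 to 1.00 times in the other 4 TAM libraries. Without it the TAM means were 295 TPM for Lgals9, 234 TPM for Lgals1 and 199 TPM for Lgals3.

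**Figure D3:**
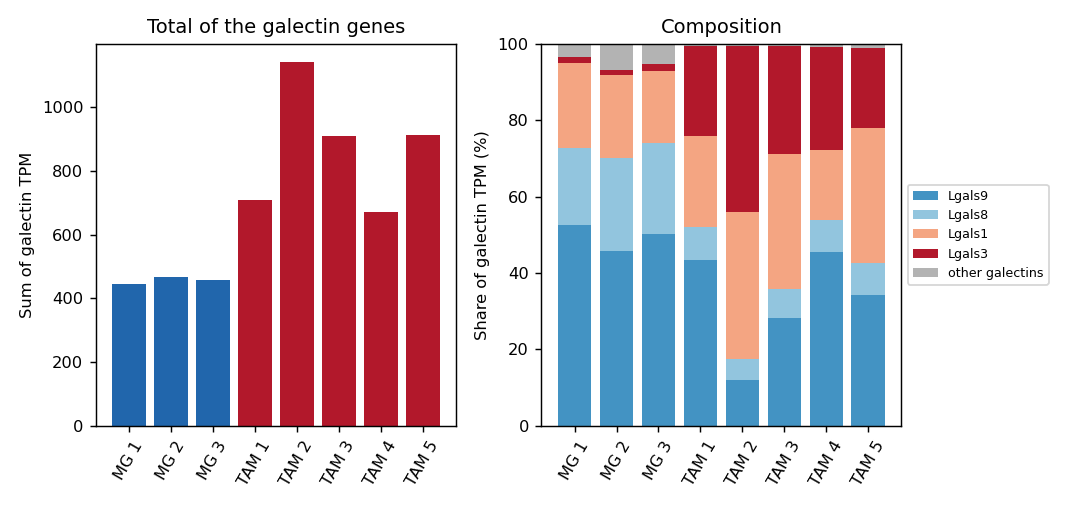
Left, the sum of TPM over all galectin genes in each microglia (MG) and TAM library. Right, the share of that sum held by Lgals9, Lgals8, Lgals1, Lgals3 and the other galectins together in percent, where Lgals3 grows from under 2% in the 3 microglia libraries to 20.9% or more in the 5 TAM libraries.

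Of the remaining galectin genes in the table, Lgals4 and the galectin-like gene Lgalsl fell and none rose. Lgals4, best known from gut epithelium, went from 11.9 ± 3.34 to 3.22 ± 1.38 TPM (log2 fold change -1.63, limma, adjusted p = 0.00205, and -0.93 rescaled). Lgalsl went from 10.9 ± 4.41 to 2.73 ± 1.20 TPM (log2 fold change -1.67, adjusted p = 0.00277, and -0.98 rescaled). Lgals2, Lgals7 and Lgals12 did not pass the filter, with Lgals2 at most 1.84 TPM, Lgals12 at most 0.296 TPM and Lgals7 listed at 0 in all 8 libraries. Both falls were thus larger than the median shift, at levels far below those of the 4 galectin members.

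Among the TAM libraries replicate 2, from the mouse of 90 days, stood apart, and in opposite directions for different genes. It had the highest Spp1, Cd44, Lgals3 and Lgals1 of the 5, and the lowest Lgals3bp and Lgals9. Over all tested genes it was the highest TAM library in 18.3% and the lowest in 26.0%. It stood at 3.42 times the mean of the other 4 libraries for Spp1, 3.76 times for Cd44, 2.49 times for Lgals3 and 1.88 times for Lgals1. For Lgals3bp the other 4 averaged 3.88 times its level and for Lgals9 2.18 times, while Lgals8 was within their range. The ratio of Lgals3bp to Lgals3 was 0.576 in replicate 2 and 2.85 to 9.62 in the other 4 TAM libraries.

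Without replicate 2 the mean of Cd44 in TAMs was 13.02 ± 2.57 TPM (SD, n = 4) and that of Spp1 567 ± 193 TPM (SD, n = 4). The log2 fold changes were then 4.69 for Spp1, 1.79 for Cd44, 4.64 for Lgals3, 1.17 for Lgals1 and 4.02 for Lgals3bp, and each rise was still called (limma, adjusted p of 1.06e-05 to 0.0188, beside 8.62% of all genes higher in that fit). In replicate 2 the summed level of 10 microglia and macrophage markers was the lowest, at 10346 TPM against 16781 to 22998 TPM in the other TAM libraries. The sum of 10 neutrophil markers was the highest, at 633 TPM against 238 to 364 TPM, with 412 to 463 TPM in microglia. That of 8 border macrophage markers was the highest too, at 1452 TPM against 641 to 996 TPM, with 831 to 1175 TPM in microglia. The border sum does not hold for each of its markers: Lyve1 was at 10.5 TPM in replicate 2, within the 5.50 to 28.2 TPM of the other TAM libraries. The neutrophil markers Ly6g, Mpo and Elane were each under 1 TPM in every TAM library, and S100a9 was at 245 TPM in replicate 2. The sum of 10 monocyte-derived macrophage markers was 10305 TPM in replicate 2, within the 5598 to 11888 TPM of the others, and Ccr2 was at 48.3 TPM there, the highest of the 5. The part of these cells in the levels of the 7 genes was not tested. Age was used only as a covariate in an alternative fit. Replicate 2 came from a mouse of 90 days and all other libraries from mice of 60 to 68 days. Age and that library therefore cannot be told apart.

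**Figure D4:**
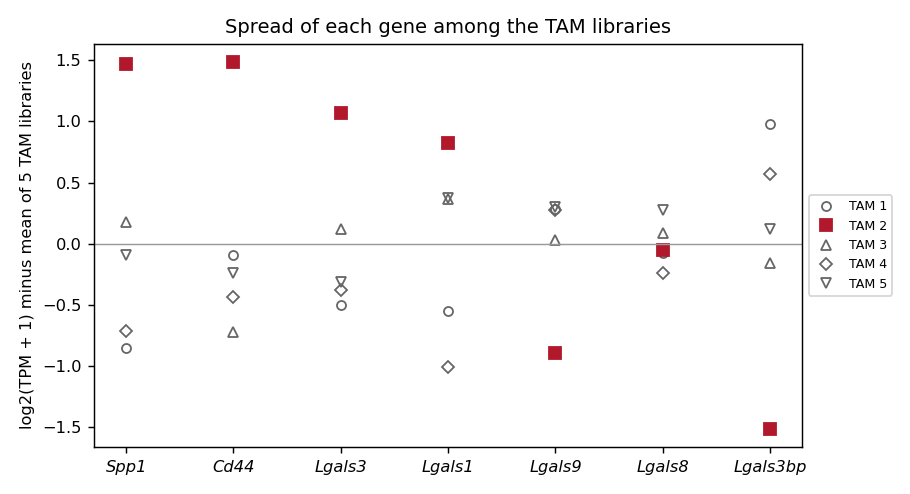
Log2(TPM + 1) of each gene in each TAM library minus the mean of the 5 TAM libraries. TAM replicate 2 (filled squares) is the highest point for Spp1, Cd44, Lgals3 and Lgals1, in the middle for Lgals8, and the lowest for Lgals9 and Lgals3bp.

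The genes whose profile over the 8 libraries was closest to each member were found by the root mean square difference of log2(TPM + 1), each gene centred on its own mean. The difference between the groups weighs heavily in such a measure, and it carries no test. For Spp1 the closest of all tested genes was Lgals3, at 0.33, followed by Apoc2, a lipoprotein gene, at 0.49 and Cxcr4, a chemokine receptor gene, at 0.56. For Lgals3 they were Apoc2 (0.30), Spp1 (0.33) and Cxcr4 (0.41). Cd44 was closest to Ciita, which encodes the master regulator of MHC class II genes (0.26), Slc28a2 (0.30) and the protease inhibitor gene Slpi (0.32). Each was, like Cd44, highest in TAM replicate 2, at 16.6, 10.7 and 19.0 TPM, so that 1 library weighs on this likeness too.

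Lgals1 was closest to Abcg3 (0.17), Pla2g7 (0.23) and 2810408I11Rik (0.24). Lgals3bp was closest to the sulfotransferase gene Chst1 (0.37), Cdkn2a, which encodes a cell cycle inhibitor (0.43), and complement C3 (0.44). Lgals9 was closest to Man2b2, which encodes a mannosidase (0.11), Pon3 (0.12) and Ctss, the cathepsin S gene (0.15). Man2b2 and Ctss were also lowest in TAM replicate 2, at 86.1 and 2460.1 TPM. Lgals8, which followed the bulk of the table, had its neighbours much closer, at 0.038 (Tmem110), 0.042 (Arfip2) and 0.048 (Wdr59).

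Because Lgals3 was the gene closest to Spp1 while Lgals9 went against them in TAM replicate 2, the DNA before their start sites is shown. For Lgals3 the RefSeq start lies inside the gene span given above. The sequences are from RefSeq on GRCm38.p6 and are cut to the part of the 250 bases before the start that lies outside every exon of GENCODE M21, 5′ to 3′. Capitals mark matches to a searched motif.
Spp1 (chr5:104434861-104435110, plus strand): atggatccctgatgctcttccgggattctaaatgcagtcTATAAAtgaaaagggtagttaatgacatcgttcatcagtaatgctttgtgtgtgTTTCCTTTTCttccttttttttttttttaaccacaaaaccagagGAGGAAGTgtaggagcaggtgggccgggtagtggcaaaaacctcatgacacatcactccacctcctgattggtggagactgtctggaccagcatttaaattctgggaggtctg
Lgals3 (chr14:47373610-47373812, plus strand): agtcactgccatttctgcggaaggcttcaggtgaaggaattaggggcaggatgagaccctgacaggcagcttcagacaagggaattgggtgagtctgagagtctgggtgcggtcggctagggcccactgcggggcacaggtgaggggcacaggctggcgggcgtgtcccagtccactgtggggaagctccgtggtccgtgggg
Lgals9 (chr11:78984947-78985174, minus strand): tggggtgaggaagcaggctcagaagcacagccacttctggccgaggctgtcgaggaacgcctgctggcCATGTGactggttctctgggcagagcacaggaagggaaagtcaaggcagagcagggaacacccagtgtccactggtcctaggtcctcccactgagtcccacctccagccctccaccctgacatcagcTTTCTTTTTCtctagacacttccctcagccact

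Motifs were searched on both strands of the 250 bases, as TGAGTCA or TGACTCA (AP-1), CACGTG and CATGTG (sites of MiT/TFE factors), GAAA, any 2 bases and GAAA (an interferon response element), GGGA, any base and TTTCC (NF-kB), GAGGAAGT (PU.1, the myeloid master factor) and TATAAA. No matches overlapped each other. The Spp1 window held TATAAA 211 to 206 bases before the start, an interferon-type match 157 to 148 and a PU.1 match 113 to 106 bases before it. Of all 32851 promoter windows of that length 12.4% held TATAAA, 2.98% the interferon-type motif and 2.44% the PU.1 motif. The AP-1, CACGTG and NF-kB motifs were held by 4.46%, 6.02% and 0.356% of them. The Lgals9 window held CATGTG 182 to 177 and an interferon-type match 55 to 46 bases before the start, and 12.3% of all windows held CATGTG. The Lgals3 window held none of the 7 motifs, as did those of Cd44 and Lgals8, and that of Lgals3bp held CATGTG. RefSeq gave a further window for Spp1 inside the gene, without a match, and none was found for Lgals1. The windows of Lgals3 and Lgals8 also lie inside the gene spans given above. They precede a RefSeq start within the gene and do not cover the DNA before the listed start of the gene. The matches describe the letters of these windows and say nothing of what binds there.

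Other genes of the same pathways were read from 10 lists, with 106 tested genes apart from the 7. Of these 19 rose and 47 fell (17.9% and 44.3%, beside 8.22% and 56.4% of all genes), and on rescaled TPM 42 of 103 rose and 17 fell (40.8% and 16.5%, beside 28.0% and 20.8%). Their median log2 fold change was -0.35 on TPM beside -0.65 over all genes, and 0.45 beside 0.07 on rescaled TPM. No statement about the lists as a whole rests on these counts, since the lists were chosen with earlier results known. The counts of each list below stand beside the same shares of all genes. For Dmp1, Hyal3, Hapln3 and Mgat3, which passed the filter only through the microglia libraries, a fall was the only outcome open.

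**Figure D5:**
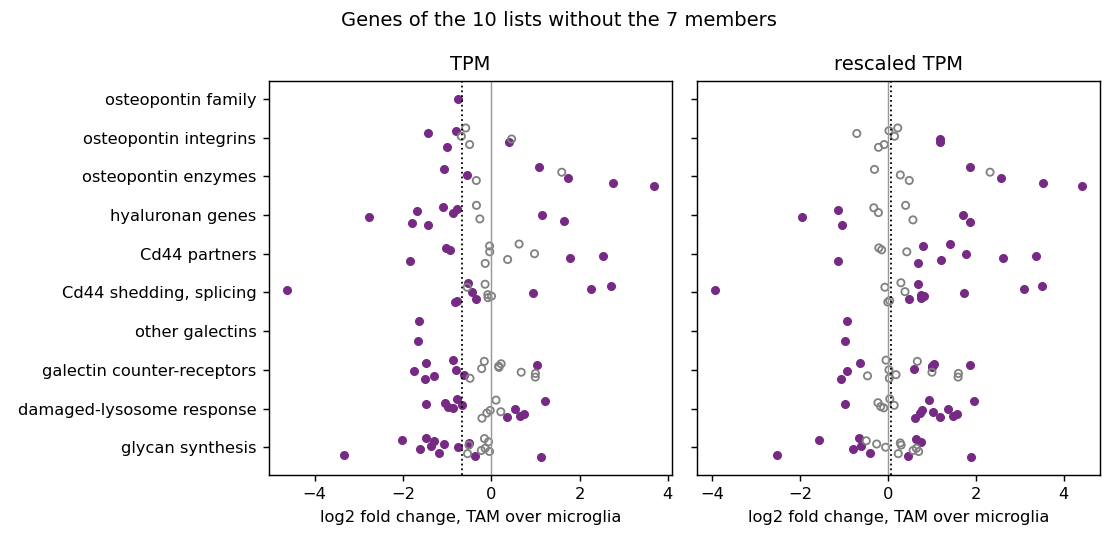
Log2 fold change of TAMs over microglia for each tested gene of the 10 lists without the 7 members, on TPM (left) and rescaled TPM (right). Filled points passed an adjusted p of 0.05 and the dotted line is the median of all tested genes, -0.65 and 0.07.

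The osteopontin family genes other than Spp1 were near 0. Of Ibsp, Dmp1, Dspp and Mepe only Dmp1 passed the filter, and only through the microglia libraries. It averaged 1.76 ± 0.589 TPM for microglia and 0.615 ± 0.175 TPM for TAMs, with at most 0.900 TPM in any tumor library. A fall was thus the only outcome open to Dmp1, so its log2 fold change of -0.76 is given without a p-value. Dmp1 was not tested on rescaled TPM, nor in the fits without a microglia library. Of 8 tested integrin genes for osteopontin 1 rose and 3 fell (2 and 0 rescaled), with a median of -0.63 beside -0.65 over all genes. Itgb5 was the most abundant, with a mean of 737 ± 79.1 TPM for microglia and 480.3 ± 147 TPM for TAMs (log2 fold change -0.68, adjusted p = 0.0558, and 0.15 rescaled). Itgb1, Itgb3 and Itga9 fell by 0.80, 1.44 and 1.01 on the log2 scale and were not called rescaled. The 1 that rose was Itga5 (0.40), chosen after its values were seen and called in 1 of the 8 fits that leave out a library. On rescaled TPM Itga5 rose by 1.19 and Itga4, which pairs with Itgb1, by 1.18 (chosen after its values were seen, lost without microglia replicate 3). The call of Itga9 was kept in 1 of those 8 fits and that of Itgb3 in 7, lost without microglia replicate 2. On TPM 5 integrin genes were lower without TAM replicate 2 and 1 without microglia replicate 2.

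Of 8 tested enzymes that cut, phosphorylate, dephosphorylate or cross-link osteopontin 4 rose and 2 fell (4 and 0 rescaled), with a median of 1.34 beside -0.65. Acp5, the tartrate-resistant phosphatase of osteoclasts and macrophages, rose from 6.03 ± 1.34 to 135 ± 163 TPM (log2 fold change 3.69, limma, adjusted p = 0.00204), with 425 TPM in TAM replicate 2. Fam20c, the secretory pathway kinase that phosphorylates osteopontin, rose from 11.5 ± 1.23 to 89.7 ± 35.6 TPM (log2 fold change 2.76, adjusted p = 0.000317), with its lowest value of 48.8 TPM in TAM replicate 2. The kinase and the phosphatase genes thus both rose. Replicate 2 was the highest for Acp5 and the lowest for Fam20c, where TAM replicate 1 was close to it at 54.2 TPM. The lysosomal protease gene Ctsd rose from 5522 ± 439 to 20035 ± 7332 TPM (log2 fold change 1.75). In TAM replicate 2 it was at 7777 TPM, with the other TAM libraries at 18789 to 25646 TPM and microglia at 5188 to 6019 TPM. Plau, the urokinase gene, fell by 0.54 on TPM and stood at 0.28 without a call rescaled. Tgm2, a transglutaminase gene, averaged 155 ± 23.4 TPM for microglia and 125 ± 34.0 TPM for TAMs without a call (adjusted p = 0.191). The other rise, in Mmp2 (1.07), and the other fall, in Mmp9 (-1.07), both chosen after their values were seen, were kept in 2 and 1 of the 8 fits that leave out a library.

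Of 11 tested genes of hyaluronan synthesis, breakdown and binding 2 rose and 7 fell (2 and 3 of 9 rescaled), with a median of -0.85 beside -0.65. Of the 7, Hyal3 and Hapln3, chosen after their values were seen, passed the filter only through the microglia libraries. They were at most 0.475 and 0.160 TPM in TAMs, so a fall was the only outcome open to them. Both weigh on the count and the median and were not tested rescaled. The synthase genes Has1, Has2 and Has3 did not pass the filter and were at most 0.491 TPM in any library. Lyve1, a hyaluronan receptor gene of border macrophages and lymphatic vessels, fell from 90.7 ± 13.3 to 14.3 ± 8.95 TPM (log2 fold change -2.76, limma, adjusted p = 0.00100), Layn fell by 1.79 and Cemip by 1.67 on the log2 scale, and each fell on rescaled TPM too. The rescaled call of Layn was lost without microglia replicate 3 (adjusted p = 0.0506). Stab1, a scavenger receptor gene, averaged 587 ± 51.0 TPM for microglia and 520.2 ± 204 TPM for TAMs without a call (adjusted p = 0.455). The rises were in Hmmr (1.14), which also encodes a spindle protein of dividing cells, and Stab2 (1.64), both chosen after their values were seen. Stab2 was called in 1 of the 8 fits that leave out a library.

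Of 11 tested partners and further ligands of CD44 2 rose and 3 fell (7 and 1 rescaled), with a median of -0.03 beside -0.65. Cd74, the invariant chain, which with CD44 forms the receptor for the cytokine MIF, rose from 388 ± 64.6 to 2355 ± 881 TPM. Mif itself rose from 135 ± 4.07 to 482 ± 113 TPM (log2 fold change 1.80, limma, adjusted p = 0.000216, and 2.62 rescaled). Cd44, Cd74 and their ligand gene were thus all higher in TAMs. The exchange factor gene Tiam1 fell by 1.84 on the log2 scale, and by 1.14 rescaled. Rdx (radixin) and Nf2 (merlin), chosen after their values were seen, fell by 1.01 and 0.94 on TPM and were not called rescaled. Msn, which encodes moesin, averaged 250.4 ± 6.14 TPM for microglia and 244 ± 18.3 TPM for TAMs (log2 fold change -0.04, adjusted p = 0.723, and 0.79 with a call rescaled). Srgn, the serglycin gene, averaged 293 ± 26.3 TPM for microglia and 393 ± 132 TPM for TAMs without a call on TPM (0.37, adjusted p = 0.192) and rose by 1.19 rescaled.

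Of 14 tested genes of CD44 shedding and variant splicing 3 rose and 6 fell (8 and 1 rescaled), with a median of -0.24 beside -0.65. Mmp14, a membrane protease gene, rose from 13.7 ± 2.95 to 101 ± 41.2 TPM (log2 fold change 2.72, limma, adjusted p = 0.000262, and 3.50 rescaled). Its inhibitor gene Timp2 rose from 195 ± 19.6 to 1018 ± 373 TPM (2.26, and 3.09 rescaled). Timp2 was at 389 TPM in TAM replicate 2 and at 1016 to 1364 TPM in the other TAM libraries. Timp3 fell from 83.4 ± 44.1 to 2.53 ± 2.57 TPM (-4.62, and -3.93 rescaled). Timp3 is also made by mural cells, whose 10 markers were all lower in TAMs, and the part of those cells was not tested. Adam10, the main CD44 sheddase gene, fell by 0.52 and Tra2b, a splicing factor gene, by 0.82 on the log2 scale, both without a call rescaled. Ncstn and Psenen, of gamma-secretase, stood at -0.08 and 0.01 without a call, and at 0.74 and 0.83 with a call rescaled. Psen2, a presenilin gene chosen after its values were seen, rose by 0.94 (1.73 rescaled). Khdrbs1, of the splicing genes and chosen after its values were seen, was called in opposite directions by scale. It fell by 0.34 on TPM and rose by 0.47 rescaled, calls kept in 3 and 6 of the 8 fits that leave out a library. The epithelial splicing factors Esrp1 and Esrp2 did not pass the filter.

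Of 17 tested counter-receptors of galectins 1 rose and 7 fell (5 and 3 rescaled), with a median of -0.22 beside -0.65. Over all genes 8.22% rose and 56.4% fell, and 28.0% and 20.8% rescaled. The rise was in Lamp1, the lysosomal membrane glycoprotein bound by galectin-3, from 657 ± 47.5 to 1362 ± 189.8 TPM (log2 fold change 1.04, limma, adjusted p = 0.000587, and 1.87 rescaled). Egfr was near the floor, with means of 3.14 TPM in microglia and 0.435 TPM in TAMs. Mertk, a phagocytic receptor gene, fell by 1.47, Itgam by 1.75 and Egfr by 1.503 on the log2 scale. On rescaled TPM they fell by 0.65, 0.93 and 1.07, with the call of Mertk lost without any 1 microglia library, that of Itgam without microglia replicate 1 and that of Egfr without microglia replicate 2. Havcr2, the TIM-3 receptor of galectin-9, went from 136 ± 11.6 to 78.9 ± 27.9 TPM (log2 fold change -0.86, adjusted p = 0.0388, and -0.05 without a call rescaled), and its TPM call was kept in 3 of the 8 fits that leave out a library. Cd33 fell by 1.29 on TPM and was at -0.47 without a call rescaled. Lag3 averaged 356 ± 45.0 TPM for microglia and 399.9 ± 216 TPM for TAMs, with 66.2 TPM in TAM replicate 2. Trem2 (0.22), Lamp2 (0.17) and Ptprc (0.17) did not pass on TPM and were called higher rescaled, Trem2 in 3 and Ptprc in 5 of the 8 rescaled fits that leave out a library. Ptprj, chosen after its values were seen, was called at 0.59 rescaled and kept that call in 5 of the 8 fits (lost without TAM replicate 4 or microglia replicate 2 or 3). The rescaled count of higher genes was 2 without microglia replicate 2 or 3, 3 without TAM replicate 1 or 4 and 8 without TAM replicate 5, and that of lower genes was 1 without microglia replicate 1 or 2.

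Of 16 tested genes of the response to damaged lysosomes 5 rose and 6 fell (10 and 1 rescaled), with a median of -0.06 beside -0.65. Optn, a receptor gene of selective autophagy, rose from 6.63 ± 1.63 to 16.8 ± 3.76 TPM (log2 fold change 1.22, limma, adjusted p = 0.00150, and 1.95 rescaled). Gabarap, a ubiquitin-like gene of autophagosomes, rose by 0.74, the segregase gene Vcp by 0.66, Lamtor1 by 0.54 and the ESCRT gene Chmp4b by 0.36 on the log2 scale. Nbr1 fell by 1.04 and Tfe3 by 0.98 on TPM, both without a call rescaled, and Trim16, a partner of galectin-3, fell by 1.48 (0.99 rescaled, lost without microglia replicate 2 or 3). Sqstm1 (0.11), Map1lc3b (-0.10) and Rragc (0.22) did not pass on TPM and were called higher rescaled at 0.93, 0.72 and 1.03. Calcoco2, the receptor bound by galectin-8, did not pass the filter.

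Of 19 tested genes that make or cap the sugar chains bound by galectins 1 rose and 11 fell (4 and 6 rescaled), with a median of -0.54 beside -0.65. St3gal6, a sialyltransferase gene that caps galactose, fell from 261 ± 13.4 to 26.4 ± 10.3 TPM (log2 fold change -3.34, limma, adjusted p = 0.000105, and -2.53 rescaled). Mgat1, whose enzyme starts complex N-glycans, fell from 173 ± 22.1 to 61.4 ± 9.95 TPM (-1.49, and -0.67 rescaled). Gcnt1, for branched O-glycans, fell by 1.62 (0.80 rescaled, with the call kept in 4 of the 8 fits that leave out a library). Mgat3 was lower by 2.01 (1.56 rescaled) from 4.23 ± 2.43 TPM in microglia. It passed the filter only through the microglia libraries, so a fall was the only outcome open to it. It is still counted among the 11 and the 6, and was tested in 5 of those 8 fits. The 1 rise was in the mannosidase gene Man2a1 (1.12, and 1.89 rescaled), chosen after its values were seen. Mgat4b and Mgat2, chosen likewise, were called higher rescaled at 0.75 and 0.64, the call of Mgat2 being lost without microglia replicate 2 or 3. Neu1, a sialidase gene chosen likewise, was called in opposite directions by scale. It fell by 0.36 on TPM (lost without microglia replicate 3) and stood at 0.45 rescaled, a call kept in 2 of the 8 fits that leave out a library. The rescaled count of higher genes was 7 without TAM replicate 5 and 2 without microglia replicate 2 or 3, and that of lower genes was 3 without microglia replicate 1 or 3.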

How the data were processed

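TPM values were made by the authors, per the file headers, with a column for each of the 8 libraries, whose sums over 38026 genes ran from 990422 to 997832. The authors' deposited table also holds, per the file headers, a p-value for each gene (not adjusted) and a fold change in log2. The submitters' processing notes list mm10, FastQC and DESeq2 with no version. No aligner, quantifier or strandedness was named in the sources used here. Another 3 unnamed columns were not used. Sample titles gave the groups and replicate numbers.

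The filter kept genes at 1 TPM or more in 3 or more libraries (15262). The fit was limma 3.58.1 in R 4.3.3 on log2(TPM + 1), with an intensity trend, all 8 libraries and no covariate, and was tested on simulated data. The deposited p-values were adjusted here by Benjamini-Hochberg. Alternatives covered scaling, pseudocount, filter, block, age, trend, the authors' own test and each library left out. The 7 members and the 10 gene lists were chosen with earlier results of these data known. From each list the text names the called genes with the 3 largest changes and genes at 100 TPM or more in the mean of a group, and others where a count was 5 or fewer. Cemip2, Clc and Lgals6 were not matched by symbol.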

Additional observations from a re-analysis of the deposited data

Results flagged for a closer look

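Among the 5 TAM libraries, TAM replicate 2 was separated from the other 4 for 3 of the 7 genes by a gap rule. The gap was larger than 0.71 of the group's range, the 95% limit of Dixon's test for 5 samples. It was measured on TPM and not on the log2 scale of the tests, where the flagged genes can differ. Chance flags about 1 in 20 groups, and 16.1% of all tested genes had a TAM library apart by the same measure. Spp1 was at 1941 TPM in that library, with the other 4 at 388 to 794 TPM. Cd44 was at 49.0 TPM, with the others at 9.87 to 15.8 TPM. Lgals3 was at 497 TPM, with the others at 167 to 257 TPM. Lgals9, lowest in the same library at 135 TPM, came close to the limit with a gap of 0.689 of the range, and Lgals3bp did not (0.338).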

How the results depend on the processing

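Spp1, Cd44, Lgals3 and Lgals3bp kept their direction and their call in 27 of 27 alternatives, with log2 fold changes of 4.50 to 6.22, 1.496 to 3.45, 4.49 to 5.98 and 3.40 to 4.84. Lgals1 was called in 25, Lgals8 in 16 and Lgals9 in 9 of the 27. On rescaled TPM 4203 genes were higher and 3125 lower, 0 members and 17 list genes were lower, 42 list genes were higher, and Lgals8 stood at 0.14 and Lgals9 at 0.98. The authors' deposited table had higher values for 4763 genes and lower values for 4324, with 0 members lower, 49 list genes higher and 24 lower, Lgals8 at 0.15 and Lgals9 at 1.02. With the age of the mouse as a covariate Lgals1 was at 1.12 (limma, adjusted p = 0.0522) and Lgals9 at 0.53 (adjusted p = 0.0191). The age term leans on TAM replicate 2, at 90 days, since the other libraries were at 60 to 68 days. The shift of all genes between the scales moves these values, and the cause of the shift was not tested. TPM holds no depth, so the part of sequencing depth in low values is unknown.

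Leaving out each library in turn gave 894 to 1303 genes higher and 5581 to 9243 lower on TPM, the fewest lower without microglia replicate 2, with 4 to 6 members higher and 1 lower, and 16 to 19 list genes higher and 37 to 52 lower. Lgals1 ran from 1.17 to 1.63, Lgals8 from -0.77 to -0.61 and Lgals9 from 0.085 to 0.38. On rescaled TPM the same fits gave 2866 to 4474 genes higher and 1536 to 3270 lower, 5 to 6 members higher and 0 lower, 33 to 49 list genes higher and 11 to 16 lower, Lgals8 at 0.094 to 0.19 and Lgals9 at 0.83 to 1.20 and Lgals1 at 1.98 to 2.43. Counts within single lists that moved by over 1.5 times on TPM, beside those given above, were the enzymes of osteopontin, with 1 lower without TAM replicate 1, 3, 4 or 5 or any microglia library and 3 without TAM replicate 2, and the hyaluronan genes, with 1 higher without any library but TAM replicate 1.

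With the replicate number as a block over the libraries numbered 1 to 3, Lgals9 stood at -0.032 (limma, adjusted p = 0.910), and at -0.032 in the same 6 libraries with no block (an alternative added after seeing the data), so the change came with the libraries left out. The block on rescaled TPM gave 3537 genes higher and 2625 lower, 0 members lower, 39 list genes higher and 17 lower, Lgals8 at 0.22 and Lgals9 at 0.88. The labels give same-numbered libraries no link beyond the number. Their deviations from the group means correlated at 0.15, 0.0139 and -0.0507 over genes for replicates 1 to 3. Pairs with unlike numbers ran from -0.118 to 0.083.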
